A study of Homo sapiens with 121 samples.

Results

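The proteasome is the barrel-shaped protease that degrades ubiquitin-tagged proteins. Its 20S core is built from stacked alpha and beta rings, and the beta subunits PSMB5, PSMB6 and PSMB7 cut the substrate. The 19S cap recognises, unfolds and feeds in the tagged protein, and interferon-inducible variants of the cutting subunits (PSMB8, PSMB9 and PSMB10) replace the standard ones in the immunoproteasome. Embryonic stem cells are known for high proteasome activity. The genes described here carry symbols that begin with PSMA, PSMB, PSMC, PSMD, PSME or PSMG and a number, together with POMP, the proteasome maturation protein. In all, 49 of the 25610 genes in the table matched, after 5 hyphenated symbols of antisense genes were left out. Each of the 49 was placed in a role list, and PSMC3IP matched by its symbol only, since it encodes a meiotic recombination protein and not a proteasome subunit.

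The values came from 121 single human embryonic stem cells (hESCs) of the WA26 line, kept on Matrigel in E8 medium without feeder cells. From each cell the polyA RNA was amplified by a Smart-seq2-type protocol, and telomere length was taken by quantitative PCR of the genomic DNA as a T/R ratio, telomere signal over Alu repeat signal. The sample titles place 81 cells in a Long, 25 in a Medium and 15 in a Short telomere group. No treatment or genotype differed between the groups, no culture or batch is named for any cell, and all cells came from 1 line, so each telomere group counts as 1 sample and every comparison is a description with no test. Values are TPM, the share of a cell's transcripts scaled by transcript length, so levels of different genes can be set side by side.

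The number of genes above 1 TPM, called detected here, differed between cells and between groups. It ranged from 4002 to 11515 in Long cells (median 9165), from 4189 to 10481 in Medium cells (median 8626) and from 2030 to 10045 in Short cells (median 5620). The 68 cells with over 8000 detected genes (51 Long, 14 Medium and 3 Short) are called gene-rich here, and the other 53 cells (30 Long, 11 Medium and 12 Short) gene-poor. Fewer than 4464 genes, 50% of the median over all cells, were detected in 11 cells, of which 6 were Long, 1 was Medium and 4 were Short. Comparisons are therefore given over all cells and within each of these sets. The hESC identity of the cells was seen in their markers, with mean levels of 1074 TPM for POU5F1 and 191 TPM for NANOG. The mean log2(TPM + 1) of 6 hESC markers was 7.29 ± 0.72 in Long and 5.64 ± 1.39 in Short cells (SD over cells). This Long minus Short difference was 1.65, beside a median of 1.40 over all genes averaging at least 10 TPM. Among gene-rich cells the marker mean was 7.61 ± 0.22 in Long and 7.44 ± 0.26 in the 3 Short cells. Among gene-poor cells it was 6.74 ± 0.93 in Long and 5.19 ± 1.17 in Short cells. Its Pearson correlation with detected genes was 0.76, and their part in the marker difference was not tested. None of 10 markers of other lineages reached a mean of 10 TPM.

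Proteasome genes were abundant transcripts of these cells. Of the 49 genes, 46 had a mean of at least 10 TPM and 34 a mean of at least 100 TPM, against 6213 and 1358 of all 25610 genes. The median of the mean levels was 199 TPM over the 46 proteasome genes and 30.8 TPM over the 6213 genes. Summed over the 49 genes, the level was 17881 ± 5228 TPM per cell (mean ± SD over 121 cells), with a range of 1777 to 31051 TPM. Of the 46 genes, 13 (28.3%) were detected in every cell and 37 (80.4%) in over 90% of cells, against 6.34% and 31.3% of the 6213 genes. Among genes with a mean of at least 100 TPM the shares lay close together, with 32 of the 34 proteasome genes (94.1%) and 92.1% of all 1358 genes detected in over 90% of cells.

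The 20S core held most of this RNA. PSMB1 (mean 1736 TPM), a structural beta subunit encoded at chr6:170844208-170862395 (GRCh37), was the highest member, followed by the catalytic subunit PSMB6 (1622 TPM) and the alpha subunit PSMA7 (1317 TPM). The 14 constitutive 20S genes summed to 12320.0 ± 3774 TPM per cell and the 17 genes of the 19S cap to 3038 ± 1294 TPM. Divided by the number of genes in each, the 19S level was 0.205 ± 0.0713 of the 20S level over all cells and 0.187 ± 0.038 in gene-rich cells. The alpha and beta rings, each of 7 genes, were close to even in the sum over genes, with an alpha to beta ratio of 1.05 ± 0.154 in gene-rich cells. Within the rings the levels were uneven. PSMA5, at a mean of 160.2 TPM, was the lowest of the 7 alpha genes, and PSMB2, at 165 TPM, the lowest of the 7 constitutive beta genes, although every 20S particle holds each subunit in equal number.

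**Figure D1:**
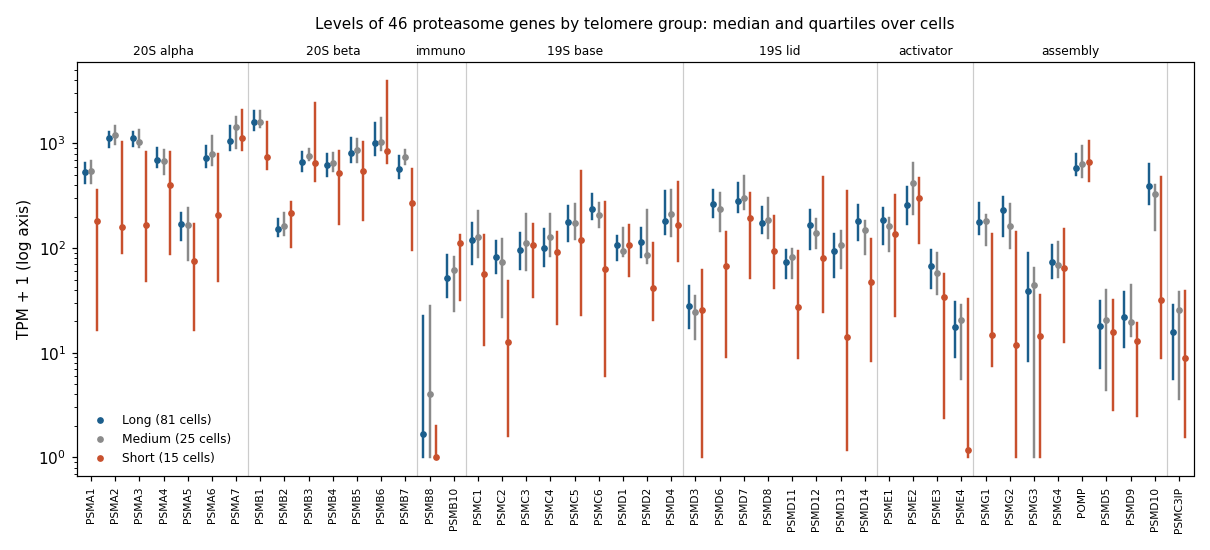
Levels of the 46 proteasome genes with a mean of at least 10 TPM, as TPM + 1 on a log axis, by role; points are medians and bars run from the lower to the upper quartile over the 81 Long, 25 Medium and 15 Short cells. Long and Medium medians lie close together for most genes, while the Short medians of 6 of the 7 alpha subunits, PSMC2, PSMG1 and PSMG2 lie lower, with wide bars.

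Among the remaining roles, POMP, which helps to assemble the 20S core, had the highest mean of the assembly factors (733 TPM). The deubiquitinase of the lid, PSMD14, stood at 179 TPM, and the ubiquitin receptor PSMD4 at 309.8 TPM. The alternative caps of the 20S core were uneven. PSME2, a subunit of the interferon-inducible PA28 cap, had a mean of 381 TPM, its partner PSME1 176 TPM, the nuclear PSME3 68.7 TPM and PSME4, the large PA200 cap, 19.6 TPM. The annotation lists 6 named pseudogenes of PSME2 and 13 of PSMC1, so that short reads from these genes may have been shared with copies.

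A few members were at or near 0. PSMB11, the beta subunit of cortical thymic epithelium, was at 0 TPM in all 121 cells, which allows a share of up to 2.48% of cells with a value above 0, from counting error only. This is no limit on the share of cells that express the gene, since transcripts can be missed in these libraries. PSMA8, the alpha subunit of the testis, was above 1 TPM in 4 cells, all of them Long, with a mean of 0.268 TPM. PSMB9 was above 1 TPM in 10 cells, with a mean of 0.944 TPM.

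The immunoproteasome subunits were low beside the standard catalytic subunits that they replace. PSMB10 (beta 2i) ranged from 0 through a median of 50.4 to 264 TPM in Long cells, from 0.64 through 61.1 to 486 TPM in Medium cells and from 0 through 111 to 1287 TPM in Short cells. PSMB8 (beta 5i) had lowest, median and highest values of 0, 0.68 and 89.9 TPM in Long cells, 0, 3 and 191 TPM in Medium cells and 0, 0 and 72.9 TPM in Short cells. The groups overlapped in both genes, and PSMB8 was above 1 TPM in 47.1% of cells. PSMB9 (beta 1i) reached 18.6 TPM in Long cells, 8.88 TPM in Medium cells and 30.3 TPM in Short cells, and its median was 0 in each group. PSMB8 and PSMB9 overlap head to head in the GENCODE annotation (chr6:32808494-32812456, minus strand, and chr6:32811913-32827628, plus strand, GRCh37). The study's methods name another annotation for the counts, and no strand setting of the counting is given in the sources used here. Whether reads were shared between the 2 genes is therefore not known.

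The 3 standard counterparts were present at far higher levels in the same cells. PSMB5 ranged from 402 through a median of 801 to 5278 TPM in Long cells, from 163 through 861 to 2284 TPM in Medium cells and from 49.1 through 543 to 2311 TPM in Short cells. PSMB6 had lowest, median and highest values of 251, 1013 and 5762 TPM in Long cells, 617, 1036 and 7481 TPM in Medium cells and 14.6, 853 and 12392 TPM in Short cells. PSMB7 had medians of 573 TPM in Long cells (range 3.87 to 1708), 734 TPM in Medium cells (range 126 to 1383) and 267 TPM in Short cells (range 0 to 2384). The immunoproteasome genes made up 3.03 ± 2.05% of the TPM of the 6 catalytic subunits in Long cells, 3.24 ± 2.73% in Medium cells and 3.74 ± 3.24% in Short cells (mean ± SD over cells), and the highest share in any cell was 11.7%. The groups thus differed by less than the spread between cells.

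Interferon induces PSMB8, PSMB9, PSMB10, PSME1 and PSME2 through short GAAA repeats that bind interferon regulatory factors and STAT complexes. The windows show a doubled GAAA, with any 2 bases between the copies (both strands searched, matches in capitals), near the start of 4 of these 5 genes. They are shown because this repeat is shared by genes whose levels differ widely in the same cells. The sequences are from the RefSeq promoter table (GRCh38.p14, 250 bases before to 50 bases after each start), run 5′ to 3′ along the gene, and were placed on GRCh37 by an exact match.
PSMB8, chr6:32811809-32811838, minus strand: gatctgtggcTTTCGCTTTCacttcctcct
PSMB10, chr16:67970755-67970784, minus strand: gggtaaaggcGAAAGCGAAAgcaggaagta
PSME1, chr14:24605398-24605427, plus strand: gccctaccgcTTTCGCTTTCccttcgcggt
PSME2, chr14:24615828-24615857, minus strand: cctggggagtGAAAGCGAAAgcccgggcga
In PSMB8 and PSME1 the match is on the strand opposite to the gene, and in PSMB10 and PSME2 on the strand of the gene. Among the 52 promoter entries of the 43 matched proteasome genes, 7 (13.5%) held the doubled GAAA, against 3.57% of all 35116 entries, and the other 3 belong to PSMA4, PSMB4 and PSMG4. The motif TGACNNNGC, which resembles the sites bound by NFE2L1, was in 15 of the 52 entries (28.8%), against 13.3% of all entries. CCAAT was in 22 (42.3%), against 34.6%. These are matches of letters and say nothing of binding.

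The 4 genes with a window stood at different levels. PSME2 and PSME1 had means of 381 and 176 TPM, PSMB10 of 87.4 TPM and PSMB8 of 14.3 TPM. Of 8 interferon response genes, 2 passed a mean of 10 TPM, of which 1 was at least 2-fold higher in Long and 1 at least 2-fold higher in Short cells by the means of log2(TPM + 1). Of 10 antigen presentation genes 5 passed, led by B2M (456 TPM) and CALR (385 TPM), and 4 of the 5 were at least 2-fold higher in Long cells. Over all 6213 genes with a mean of at least 10 TPM, 66.5% were, so that 4 of 5 is near the share of all genes. TAP1, the peptide transporter gene that lies within PSMB9 on the opposite strand in the GENCODE annotation, had a mean of 2.07 TPM.

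The main comparison set Long against Short cells, as the difference of mean log2(TPM + 1), and called a gene at 1 or more, a 2-fold difference. Of the 46 proteasome genes, 28 were at least 2-fold higher in Long cells and 18 lay between the limits, and 0 were at least 2-fold higher in Short cells. Over all 6213 genes with a mean of at least 10 TPM, 66.5% were called higher in Long and 1.71% higher in Short cells, so the share of 60.9% among proteasome genes lay near the background. The median difference was 1.28 over the 46 genes and 1.40 over all genes. The size of these differences depends on the scale. Division by the median ratio over 602 genes present in every cell moved the median of all genes by -0.38, and rescaling without ribosomal protein genes moved it by 0.12. The median over proteasome genes minus that over all genes was -0.13 as deposited, -0.34 after division by the median ratio and -0.15 without ribosomal protein genes.

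The median differences varied between the roles, each of which holds few genes. The counts by role stand beside the 66.5% of all 6213 genes called higher in Long cells. In gene-rich cells, 0 of the 7 alpha ring genes and 1 of the 17 19S genes were called higher in Long cells, against 12.7% of all genes. The values that follow are over all cells. Of the 7 alpha ring genes 6 were called higher in Long cells, with a median difference of 2.06. Of the 4 structural beta genes 1 was called (median 0.39), and of the 3 standard catalytic genes 2 were (median 1.10). In the 19S cap 4 of 6 ATPases (median 1.55), 1 of 3 other base subunits (0.75) and 7 of 8 lid subunits (1.39) were called. Of the 4 activators 3 were called (median 1.44), of the 5 20S assembly factors 3 (1.83) and of the 3 19S assembly chaperones 1 (0.74). Neither of the 2 immunoproteasome genes with a mean of at least 10 TPM was called, nor was PSMC3IP (0.35). For comparison, 7 of the 8 genes of the CCT chaperonin, a large protein-folding complex, were called (median 1.90), and 23 of 82 cytosolic ribosomal protein genes (0.73).

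PSMA3, an alpha ring subunit (chr14:58711561-58738730, GRCh37), carried the largest difference in the 20S core. Its values ran from 184 through a median of 1129 to 2188 TPM in Long cells, from 60.6 through 1038 to 2893 TPM in Medium cells and from 1.4 through 164 to 1236 TPM in Short cells. The Long cell was higher in 88.1% of the pairs formed by 1 Long and 1 Short cell, although the groups overlapped, and the difference was 3.10. In gene-rich cells it was 0.056, and in gene-poor cells 3.70. PSMA3 was also the steadiest member among gene-rich cells, with an SD of 0.28 in log2(TPM + 1), while its SD in gene-poor cells was 2.27.

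The other alpha genes followed the same order except PSMA7. PSMA1, PSMA2, PSMA4, PSMA5 and PSMA6 differed by 1.59 to 2.52 over all cells. Among gene-rich cells their differences were -0.45 to -0.072. PSMA7 ranged from 175 through a median of 1054 to 2852 TPM in Long cells, from 771 through 1447 to 3531 TPM in Medium cells and from 186 through 1131 to 4941 TPM in Short cells. Its Short median was above its Long median, the groups overlapped, and its difference was -0.23.

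The beta ring genes PSMB2 and PSMB3 did not share the Long excess of the alpha ring. PSMB2 had medians of 151 TPM in Long cells (range 7.43 to 362), 161 TPM in Medium cells (range 67.3 to 289) and 215 TPM in Short cells (range 14.1 to 401). PSMB3 had lowest, median and highest values of 43.7, 662 and 3004 TPM in Long cells, 435, 757 and 2149.9 TPM in Medium cells and 73.1, 653 and 5548 TPM in Short cells. The differences were -0.074 for PSMB2 and -0.42 for PSMB3, and that of PSMB3 was -1.19 after division by the median ratio, the only member then called higher in Short cells. PSMB1, the most abundant member, ran from 870.0 through a median of 1592 to 6278 TPM in Long cells, from 970.2 through 1602 to 4269.8 TPM in Medium cells and from 62.9 through 744 to 2869 TPM in Short cells. Its Short median was below the Long minimum, and its difference was 1.13. Of the catalytic subunits, PSMB5 differed by 1.10, PSMB7 by 1.63 and PSMB6 by 0.067. The mean of PSMB6 in Short cells, 2811 ± 3485 TPM, rested in part on 1 cell at 12392 TPM and was 2127 TPM without it.

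In the 19S base, the ATPase PSMC2 differed most. It ran from 0.58 through a median of 80.4 to 926 TPM in Long cells, from 0.2 through 71.9 to 444 TPM in Medium cells and from 0 through 11.7 to 264 TPM in Short cells. The Long cell was higher in 82% of pairs, the groups overlapped, and the difference was 2.84 (0.54 in gene-rich cells). The other ATPases ranged from 0.69 for PSMC3 to 2.34 for PSMC6. The ubiquitin receptor PSMD4 had medians of 181 TPM in Long cells (range 15.3 to 2166), 211 TPM in Medium cells (range 51.3 to 921) and 165 TPM in Short cells (range 2.3 to 1197) and a difference of 0.63, under the limit, and the large scaffold subunits PSMD1 and PSMD2 differed by 0.75 and 1.40.

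In the 19S lid, PSMD6 ran from 0.87 through a median of 262 to 2952 TPM in Long cells, from 11.4 through 233 to 1289.7 TPM in Medium cells and from 0 through 66 to 737 TPM in Short cells. The Long cell was higher in 84.7% of pairs, and the difference was 2.84. PSMD14, which removes the ubiquitin chain before the substrate enters, had lowest, median and highest values of 2.99, 181 and 654 TPM in Long cells, 0, 149 and 454 TPM in Medium cells and 0, 46.1 and 584 TPM in Short cells. Both genes had Short medians well below their Long medians while their highest Short cells lay inside the Long range, and the difference of PSMD14 was 2.49. PSMD13 had medians of 92.1 TPM in Long cells (range 0 to 543), 106 TPM in Medium cells (range 2.88 to 430.4) and 13.1 TPM in Short cells (range 0 to 651) and a difference of 1.36, which was -0.16 over the cells in which it was detected and -0.30 in gene-rich cells. PSMD3, with medians of 26.8 TPM in Long, 23.4 TPM in Medium and 24.3 TPM in Short cells, was the only lid gene under the limit (0.67).

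The assembly factors held the largest difference of all members together with some of the smallest. PSMG2, which pairs with PSMG1 to guide the alpha ring, ran from 0 through a median of 231 to 569 TPM in Long cells, from 2.23 through 163 to 893 TPM in Medium cells and from 0 through 10.9 to 294 TPM in Short cells. PSMG1 had lowest, median and highest values of 3.79, 176 and 730.2 TPM in Long cells, 13.7, 182 and 478 TPM in Medium cells and 0, 13.9 and 1073 TPM in Short cells. The pair differed by 3.41 and 2.80, with the Short medians near the low end of the Long cells. POMP, which acts in the next step of the same assembly, had medians of 579 TPM in Long cells (range 308 to 1982), 636 TPM in Medium cells (range 101 to 2573) and 666 TPM in Short cells (range 38.7 to 2663), and its difference was 0.064. PSMG3, the most variable assembly factor among gene-rich cells (SD 1.72), differed by 1.83 and its partner PSMG4 by 0.79.

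The 19S chaperones also differed among themselves. PSMD10, also known as gankyrin, differed by 2.79, PSMD9 by 0.74 and PSMD5 by 0.034. PSMD5 ran from 0 through a median of 17.1 to 95 TPM in Long cells, from 0 through 19.4 to 154 TPM in Medium cells and from 0 through 14.8 to 1637 TPM in Short cells, and the highest Short value came from 1 cell, without which its difference was 0.54. PSMD10 was the only member at least 2-fold apart between Long and Medium cells (1.03), where 1.75% of all genes were called higher in Long and 0.66% higher in Medium cells.

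Of the activators, PSME3 had medians of 66.5 TPM in Long cells (range 0 to 297), 56.6 TPM in Medium cells (range 2.65 to 169) and 33 TPM in Short cells (range 0 to 153) and a difference of 1.90. PSME4 ran from 0 through a median of 16.5 to 114 TPM in Long cells, from 0 through 19.5 to 41.4 TPM in Medium cells and from 0 through 0.17 to 64.1 TPM in Short cells. Its difference of 1.53 was -0.22 over the cells in which it was detected. It was above 1 TPM in 84% of Long and 46.7% of Short cells. PSME1 had lowest, median and highest values of 0.62, 185 and 455 TPM in Long cells, 1.8, 160.4 and 481 TPM in Medium cells and 0, 134 and 732 TPM in Short cells, and differed by 1.35. PSME2 had medians of 255 TPM in Long cells (range 0 to 1559.7), 418 TPM in Medium cells (range 106 to 2114) and 299 TPM in Short cells (range 1.89 to 1236), and differed by 0.27. The groups overlapped in all 4 activators.

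**Figure D2:**
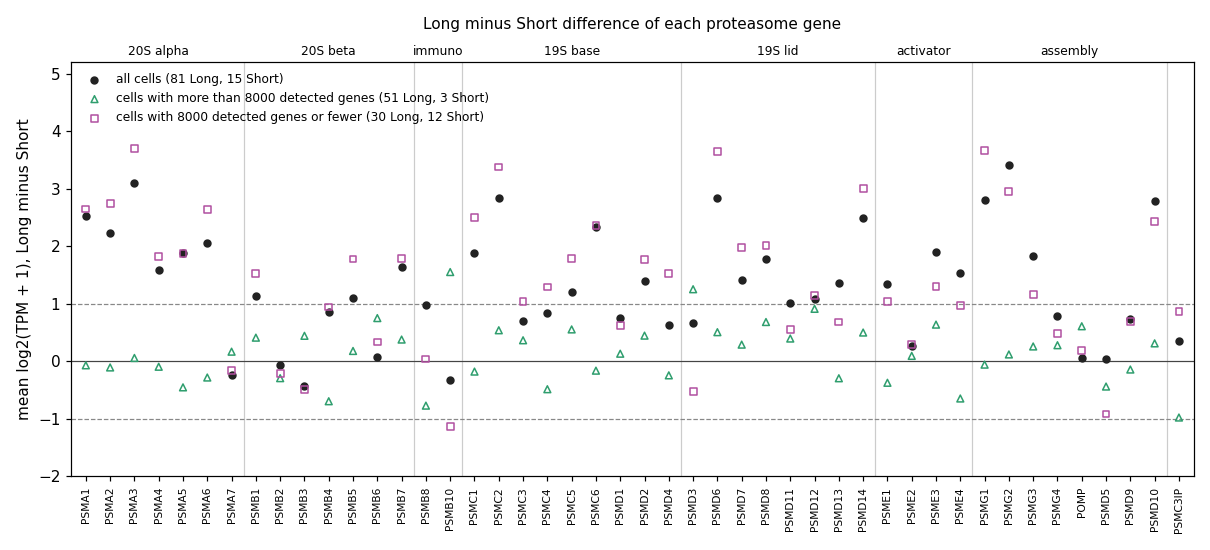
Long minus Short difference of mean log2(TPM + 1) for the 46 genes, by role, over all cells (filled circles), over the gene-rich cells (triangles) and over the gene-poor cells (squares); dashed lines mark 2-fold differences. The triangles lie around 0 (median 0.15), while the circles (median 1.28) and squares (median 1.29) lie mostly above it.

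The differences were not alike in gene-rich and gene-poor cells. Among gene-rich cells, the median difference over the 46 genes was 0.15, against 0.04 over all genes, and 2 proteasome genes, PSMB10 (1.55) and PSMD3 (1.25), were called higher in Long cells and 0 higher in Short cells. The background there was 12.7% higher in Long and 6.94% higher in Short cells, from 51 Long and only 3 Short cells. Both calls rested on 1 of the 3 Short cells, in which PSMB10 and PSMD3 were at 0, while the other two had PSMB10 at 122 and 40.2 TPM and PSMD3 at 38.6 and 59.4 TPM. Without that cell the differences were -0.50 and -0.62, the median over the 46 genes was -0.062, and 1 gene, PSMD12, was called higher in Long cells (background 11.3%). Among gene-poor cells, 28 were called higher in Long cells (60.9%) and 1, PSMB10 (-1.13), higher in Short cells, against a background of 51% and 3.9%. The median differences there were 1.29 over proteasome genes and 1.03 over all genes. The Short cells of this set also had fewer detected genes (median 5387) than its Long cells (median 5889). The part of the number of detected genes in the differences was not tested.

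The medians over proteasome genes and over all genes were smaller without the cells in which a gene was at 1 TPM or lower. When each gene was averaged over the cells in which it was above 1 TPM, the median difference was 0.81 over proteasome genes and 0.29 over all genes. That of the alpha ring was 2.13, but 5 of its 7 genes were above 1 TPM in every cell, so this filter could hardly change it. Values just above 1 TPM, such as PSMA3 at 1.4 TPM in a Short cell, count as detected. The part of missed transcripts in the differences was not tested. The 2 sets differ in level, and among genes with a mean of at least 100 TPM the same medians were 1.06 for the 34 proteasome genes and 0.77 over all genes. At that level, where genes are rarely missed, the median difference over all cells was 1.34 over all genes, beside 1.38 for the 34 proteasome genes. Medium cells were close to Long cells, with a median Long minus Medium difference of -0.0073 over the 46 genes, and 31 of the 46 (67.4%) were at least 2-fold higher in Medium than in Short cells, near the 59.9% of all 6213 genes.

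The summed levels of the 3 groups lay within the spread between cells. The 49 genes summed to 17812 ± 4783 TPM in Long, 18800.3 ± 4907 TPM in Medium and 16723 ± 7702 TPM in Short cells, and the differences between groups were smaller than any of these SDs. The Short mean came to 17791 TPM without its lowest cell and 15752 TPM without its highest. After division by the median ratio the direction turned, with a Long minus Short difference of -7230 on that scale, beside 1089 TPM as deposited. The 19S genes summed to 3081 ± 1244 TPM in Long and 2726 ± 1551 TPM in Short cells. Over all cells the differences of the rings had opposite signs. The alpha ring summed to 5729 ± 1167 TPM in Long and 4025 ± 2198 TPM in Short cells, and the constitutive beta ring to 6484 ± 2782 and 7503 ± 5282 TPM. Neither difference was larger than the SD of the Short cells. In gene-rich cells the signs were exchanged, and in gene-poor cells both differences were positive. The Long minus Short difference of the alpha sum was -185 TPM in gene-rich and 2498 TPM in gene-poor cells, and that of the beta sum 560.0 and 195 TPM, beside -1019 TPM over all cells. Without the Short cell of highest beta sum (20221 TPM), the beta difference over all cells was -111 TPM.

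The 3 immunoproteasome genes summed to 85.2 ± 61.3 TPM in Long, 110.4 ± 108 TPM in Medium and 184 ± 325 TPM in Short cells. A single Short cell, at 1319 TPM, decided the last value, which was 103 ± 89.3 TPM without it. Without the 11 cells under 4464 detected genes the Long minus Short difference of the sum was 14.9 TPM instead of -98.8 TPM, and that of PSMB10 0.87 instead of -0.34 in mean log2(TPM + 1). The cell at 1319 TPM had the fewest detected genes of all 121 (2030). Its PSMB10 stood at 1287 TPM and its PSMB6 at 12392 TPM, while its PSMA3 was at 1.4 TPM and its PSMA6 at 1.3 TPM. Another Short cell, with 6046 detected genes, had the lowest sum of all cells, 1777 TPM. In that cell PSMA7 was at 778 TPM, the next member, PSMB6, at 119 TPM, and PSMB7, PSMC1, PSMC3, PSMC5 and PSMD14 at 0.

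**Figure D3:**
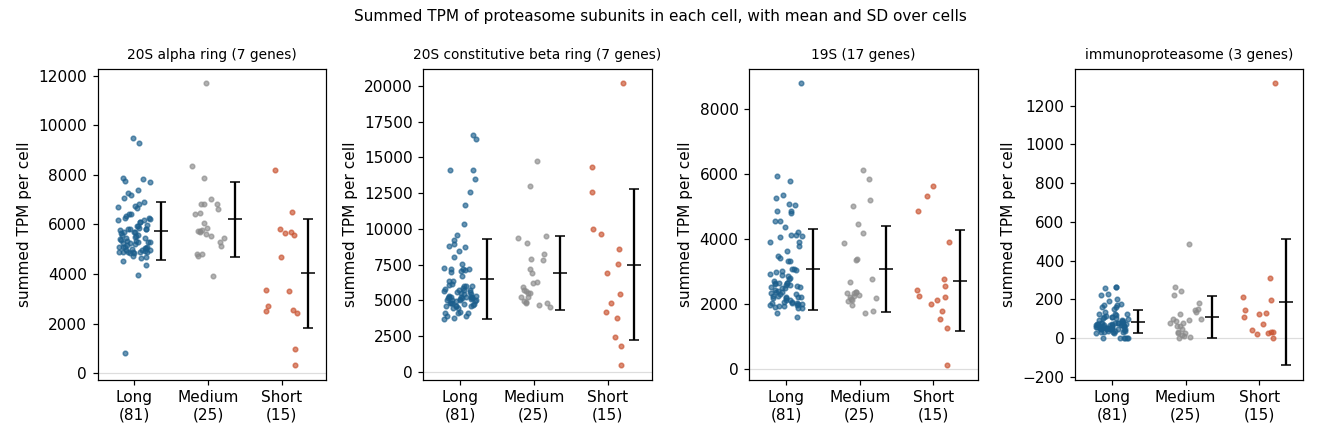
Summed TPM per cell of the 7 alpha ring genes, the 7 constitutive beta ring genes, the 17 19S genes and the 3 immunoproteasome genes, 1 point for each Long (81), Medium (25) and Short (15) cell, with the mean and SD over cells beside the points. Over all cells the alpha ring sum is lower in Short cells, the beta ring and 19S sums overlap throughout, and a single Short cell lies far above the rest in the immunoproteasome panel.

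The cell mean of log2(TPM + 1) over the 46 genes and their summed TPM ran in opposite directions with the number of detected genes. Pearson's r with detected genes was 0.58 for the mean log2 level (Spearman's rho 0.53) and -0.56 for the sum (rho -0.50), as descriptions over 121 cells of 1 line. The sum was 15988 ± 2588 TPM per gene-rich cell and 20310.1 ± 6615 TPM per gene-poor cell. In gene-poor cells 19S genes were missed more often than 20S genes. Of the 17 19S genes, 15.6 ± 1.86 were detected per gene-poor cell, with a minimum of 8, against 13.8 ± 0.411 of the 14 constitutive 20S genes. The 19S genes were also lower, with a median of the mean levels of 149 TPM against 850 TPM for the 20S genes. The part of level in the missed genes was not tested. In gene-rich cells all 14 constitutive 20S genes were detected in every cell.

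With the T/R ratio as a continuous measure, proteasome genes showed weak relations. The median Pearson correlation of the 46 genes' TPM with the ratio was 0.041 over 121 cells and 0.042 over all 6213 genes. It was -0.065 among gene-rich and 0.08 among gene-poor cells. The highest were PSMA3 (0.28, rho 0.24), PSMD6 (0.28, rho 0.31), PSMB1 (0.22, rho 0.19) and PSMD14 (0.22, rho 0.30). Within gene-rich cells these were -0.10, -0.058, 0.055 and 0.08. The lowest were PSMB2 (-0.21, rho -0.17), PSMD13 (-0.21, rho -0.083), PSMD3 (-0.20, rho -0.031) and PSMB3 (-0.20, rho -0.14). Within the same cells they were -0.17, -0.32, -0.011 and -0.14. PSME3, the nuclear activator, stood at 0.21 over all cells and at 0.33 in gene-rich cells.

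**Figure D4:**
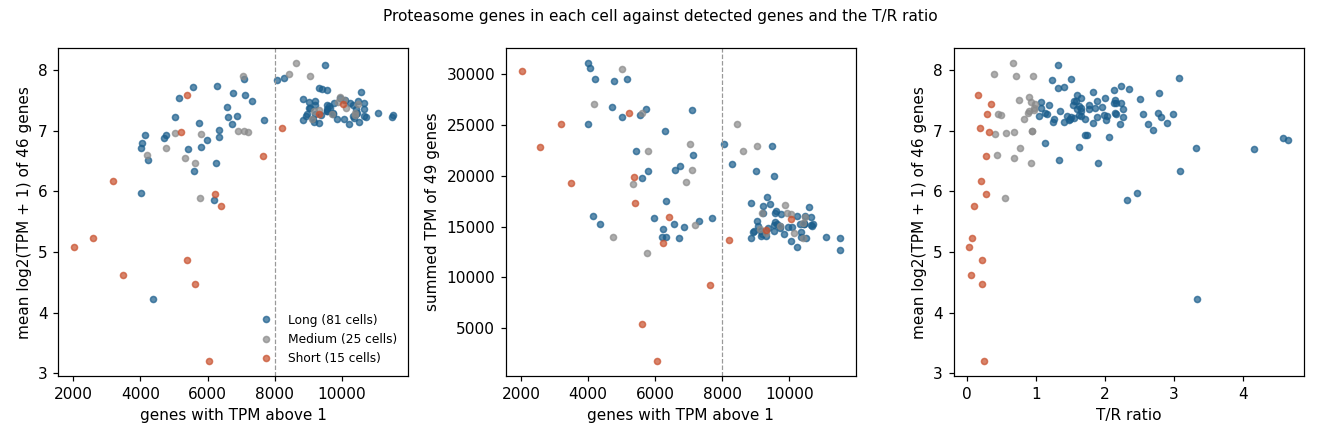
Each point is a cell, coloured by telomere group: the mean log2(TPM + 1) of the 46 genes (left) and the summed TPM of the 49 genes (middle) against the number of detected genes, and the mean log2 level against the T/R ratio (right); the dashed line is at 8000 detected genes. The mean log2 level widens and drops in cells with few detected genes (r = 0.58) while the sum is higher in them (r = -0.56), and the relation of the mean log2 level with the T/R ratio is weak (r = 0.20).

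Proteasome genes varied together only loosely from cell to cell. The median pairwise Pearson correlation of log2(TPM + 1) over the 1035 pairs was 0.19 over all cells, against 0.18 for pairs of all 6213 genes. In gene-rich cells it was 0.091, against 0.015. The 17 19S genes stood at 0.33 there, the 14 constitutive 20S genes at 0.15, the CCT genes at 0.25 and the ribosomal protein genes at 0.32. The closest pairs over all cells were PSMA2 with PSMA6 (0.78) and PSMA2 with PSMB7 (0.76). In gene-rich cells they were PSMA7 with PSME2 (0.67), PSMB6 with PSMC5 (0.67) and PSMA7 with PSMD4 (0.65). The cells share a line and a library protocol, and the number of detected genes enters each of these values.

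PSMB8 was the most variable member in those cells (SD 2.21 in log2(TPM + 1)), and the median SD was 0.66 over the 46 genes and 1.08 over all genes. At a mean of at least 100 TPM the medians lay close together, at 0.52 for the 34 proteasome genes and 0.58 over the 1358 genes. The steadiest after PSMA3 was PSMB2 (0.33). The genes outside the list whose level ran most nearly with the mean log2 level of the 46, by Spearman correlation over these 68 cells, were GTF3C6 (0.63), SSB (0.63), U2AF1 (0.62), BRIX1 (0.61) and HMGB1 (0.61), where the median over 6167 genes was 0.027. In the gene-poor cells their values were 0.36, 0.26, 0.18, 0.45 and -0.023.

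Among the members, the differences went with the base composition of the transcripts. Across the 46 genes, the Long minus Short difference had a Pearson correlation of -0.49 with the GC content of the longest coding transcript (rho -0.48), and over the 5804 of 6213 genes with a value it was -0.14. Genes are not independent replicates, and the correlation is a description. Of the 23 members with the lower GC content (36.4% to 48.6%) 19 were called higher in Long cells, with a median difference of 1.89. Of the 23 with the higher (49.1% to 61.7%) 9 were, with a median of 0.83. Over all 6213 genes 66.5% were called higher in Long cells, and the shares of all genes within these GC ranges are not given. Among gene-rich cells the correlation over the members was 0.22. All alpha ring genes but PSMA7, and PSMC2, PSMG1 and PSMG2, are among the members of lower GC content, and PSMB3, PSMB6, PSMB10 and PSMA7 among those of higher, while POMP (39.4% GC) and PSMB2 (44.1%) have lower GC content and differences near 0. The part of base composition in the differences was not tested.

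**Figure D5:**
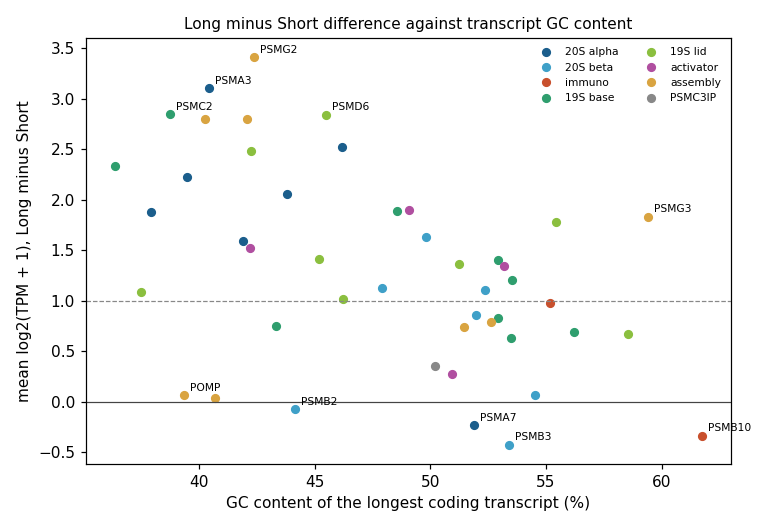
Long minus Short difference of mean log2(TPM + 1) over all cells against the GC content of the longest coding transcript for the 46 genes, coloured by role, with the dashed line at a 2-fold difference. The differences are higher at lower GC content (r = -0.49), with POMP and PSMB2 as low-GC genes near 0.

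Partner genes of the proteasome were called about as often as genes at large. Of 26 partner genes, 23 passed a mean of 10 TPM, and 16 of them (69.6%) were called higher in Long and 0 higher in Short cells, with a median difference of 1.34, against 66.5% and 1.71% of all genes and a median of 1.40. Of the 8 measured proteasome-bound factors 5 were called. SHFM1, the small lid subunit that carries no PSM symbol, had the highest mean level (1563 TPM) and differed by -0.42, and the deubiquitinase UCHL5 by 2.61. RPS27A and UBB, which encode ubiquitin, had means of 4940.0 and 4063 TPM. Both ubiquitin activating enzymes, UBA1 (1.17) and UBA6 (2.01), were called. Of 5 measured shuttle and unfolding factors 4 were, led by UBQLN1 (2.90), whose correlation with the T/R ratio was 0.44. Of the genes listed for control of proteasome expression or localisation, NFE2L1 (1.39) and 3 others were called. NFE2L1 is the factor that raises proteasome gene transcription when the proteasome is impaired. AKIRIN2 (2.16), also called, is needed for import of proteasomes into the nucleus. In gene-rich cells 1 of the 23 partner genes was called higher in Long cells and 0 higher in Short cells, against 12.7% and 6.94% of all genes.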

How the data were processed

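PolyA RNA of 121 single WA26 cells was sequenced. The deposited values are TPM per gene and cell, which the authors rounded to 2 decimals. Per the labels, the submitters' processing notes list TopHat2, RSEM and hg19, while the study's methods name another counter, so the exact route to TPM is not settled and depth per cell is unknown. The 25610 complete gene rows, in alphabetical order, summed to 979828 to 997050 TPM per cell. A cut last row was left out, and genes after it were not analysed here. The T/R ratio of each cell was taken from the study's own list and used only as an x variable.

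Cells were grouped by title. Differences are of mean log2(TPM + 1), with genes at a mean of at least 10 TPM and a limit of 2-fold. A log2(TPM + 1) difference understates that of low genes. The border of 8000 detected genes (TPM above 1) was chosen with the values known. No tests were run, since each group is 1 sample. Members named with full values were the catalytic, immunoproteasome and activator genes, PSMD14, POMP and PSMD4, and the extremes by level, difference, correlation with the T/R ratio and variability. The members and all lists were chosen with earlier results of these data known. Alternatives were other pseudocounts (0.1 and 10), detected cells only, medians, sets of cells, scalings and filters, and, added after the data were seen, each Short cell left out in turn. Positions and transcript GC content are from GENCODE on GRCh37, the build of the labels, and promoters from RefSeq. Scripts ran in Python 3.11.15 (pandas 2.3.3, numpy 2.4.6, matplotlib 3.10.9) and were tested on simulated data. Values of some genes of the comparison lists are not reported here.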

Additional observations from a re-analysis of the deposited data

How the results depend on the processing

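No paired analysis was possible because the results come from no test and the numbers in the titles only name cells. The main values stayed near those reported in 73 recomputations under other settings and moved in 12 (counts within 1.5 times, differences and sums within 1 SD over cells, correlations within 0.1). These limits are wide. That of the median difference was 0.68, and 1 SD over cells exceeded the summed Long minus Short difference of 1089 TPM over all members. A value counted as near could thus change much or change sign, and the tally does not measure stability. In gene-rich cells (over 8000 detected genes), 2 genes were called higher in Long cells, the median difference was 0.15, the median T/R correlation -0.065 and the median pairwise correlation 0.091, which over all cells was 0.045 on TPM. Setting the 40 cells of highest against the 40 of lowest T/R ratio gave 7 genes and a median of 0.36. No share or median over all genes is given for this split, so these 2 values cannot be read against a background. The count higher in Short cells was 1 with medians, in gene-poor cells (background 3.9%) and after division by the median ratio. Shares of all genes are not given for the medians and the median ratio. After division by the median ratio the summed difference was -7230 over all members and -5146 over the 20S genes, on that scale and not in TPM. Of the Short cells, 3 are gene-rich.

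Single genes were compared for the 25 members named with full values, and a turn was counted where the difference over all cells was at least 1. Among these, the difference turned in gene-rich cells for PSME1 (-0.38), PSME4 (-0.65), PSMG1 (-0.060) and PSMD13 (-0.30), over detected cells for PSME4 (-0.22) and PSMD13 (-0.16), and between the T/R extremes for PSMD13 (-0.0019). Outside these 25, PSMA1, PSMA2, PSMA4, PSMA5 and PSMA6 also turned negative in gene-rich cells. Of all 46 members, 42 had a positive difference over all cells and 27 in gene-rich cells. The T/R correlation turned in gene-rich cells for PSMA3 (-0.10) and PSMD6 (-0.058). The causes were not tested.

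With each Short cell left out in turn, the genes called higher in Long cells numbered 23 to 30 and those higher in Short cells 0, and the median difference was 0.99 to 1.48. The matching shares of all genes are not given for these counts. With every Short cell kept, the shares were 66.5% higher in Long and 1.71% higher in Short cells. The summed difference was 21.4 to 2061 TPM over all members, -36.0 (without the Short cell of lowest sum) to 1480 TPM over the 20S, 169 to 562 TPM over the 19S and -112 to -17.7 TPM over the immunoproteasome genes, and the immunoproteasome share -0.98 to -0.31 percentage points. In gene-rich cells, without each of their 3 Short cells, 1 to 5 genes were called higher in Long cells (background 11.3% to 18.8%). There, 0 to 1 were called higher in Short cells, PSMC3IP in 1 case and PSMB8 in another (background 8.27% to 12.3%).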
